A study of Mus musculus with 3 samples.

Results

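The genes described are 31 genes of the endoplasmic reticulum (ER) that fold, repair or degrade secretory and membrane proteins, or that sense their misfolding. They were chosen by name, as a list, and not by a cutoff on any measured value, although earlier results of these data were known. All 31 were found among the 55536 Ensembl genes of the tables. By role they comprise 3 stress sensors with the transcription factor Xbp1, 9 genes of the HSP70 and HSP90 system with luminal stress factors, 2 lectin chaperones, 7 members of the disulfide isomerase family and 9 genes of ER-associated degradation.

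The libraries came from bone marrow-derived macrophages of C57BL/6J mice. The cells received lipid A, the part of bacterial lipopolysaccharide that engages Toll-like receptor 4, at 100 ng/ml for 10 min. RNA of the fraction labelled cytosol was depleted of ribosomal RNA and sequenced as total RNA in 3 biological replicates that form the series' only group. No untreated or nuclear sample was analysed here, so each value is a level in that fraction of stimulated cells and not a response. Whether the fraction holds RNAs for ER proteins and for cytosolic proteins to the same extent was not tested. All replicates carry a single donor identifier, sex and age were not collected, and nothing in the labels separates the replicates by animal or culture, so every p-value measures the spread between these samples, which may be technical.

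Proteins that enter the ER meet the HSP70 chaperone BiP and its co-chaperones, the lectin chaperones that hold glycoproteins, and the isomerases that form and exchange disulfide bonds. Molecules that fail to fold are pulled back into the cytosol, ubiquitinated and destroyed. When misfolded protein builds up, the sensors IRE1, PERK and ATF6 start the unfolded protein response, which raises chaperone and degradation genes through the transcription factors XBP1 and ATF6 and slows translation through PERK. In macrophages this machinery serves the secretion of cytokines and lysosomal enzymes, and Toll-like receptors themselves need the ER chaperone GRP94 to mature.

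Expected counts over Ensembl genes totalled 33825547, 54667365 and 43176007 in replicates 1, 2 and 3. All 12 macrophage markers examined reached 1 TPM (the transcripts-per-million unit, which corrects for transcript length) in every library. They summed to between 8015 and 9215 TPM. Plasma and B cells carry the most ER of the leukocytes. Their 9 markers summed to between 9.80 and 11.96 TPM. Of the 9, 2 reached 1 TPM in every library, and the highest was Ighm at 4.3 to 5.71 TPM. The median of the mean TPM of the 9 was 0.0467. The markers Jchain and Mzb1 were at most 0.04 TPM and 0.03 TPM, while Sdc1 stood at 0.56, 0.52 and 1.02 TPM in replicates 1, 2 and 3. Neutrophil markers summed to at most 35.9 TPM, with S100a9 highest at 13.11 to 20.75 TPM and Ly6g at 0. T and NK cell markers summed to at most 28.1 TPM, nearly all of it Cd4, and stromal markers to at most 0.12 TPM. Mast cell markers reached at most 0.60 TPM, dendritic cell markers at most 2.29 TPM, and the 3 erythroid markers were at 0.

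Every one of the 31 genes was present at 1 TPM or more in every library. Of all 55536 genes, 17.3% met that criterion, and of the 22015 protein-coding genes 41.6% did. At 10 TPM or more in every library stood 26 of the 31. The median of the list was 26.08 TPM in replicate 1, 25.13 in replicate 2 and 27.62 in replicate 3, or 26.3 ± 1.26 TPM (SD, n = 3). The median over the 9944 genes with a mean of at least 1 TPM was 7.09 ± 0.41 TPM (SD, n = 3). Together the members took 0.578%, 0.626% and 0.670% of the protein-coding TPM of replicates 1, 2 and 3. Calr, Hspa5, Hsp90b1 and Canx made up 45.3% ± 0.876 (SD, n = 3) of the members' summed TPM.

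**Figure D1:**
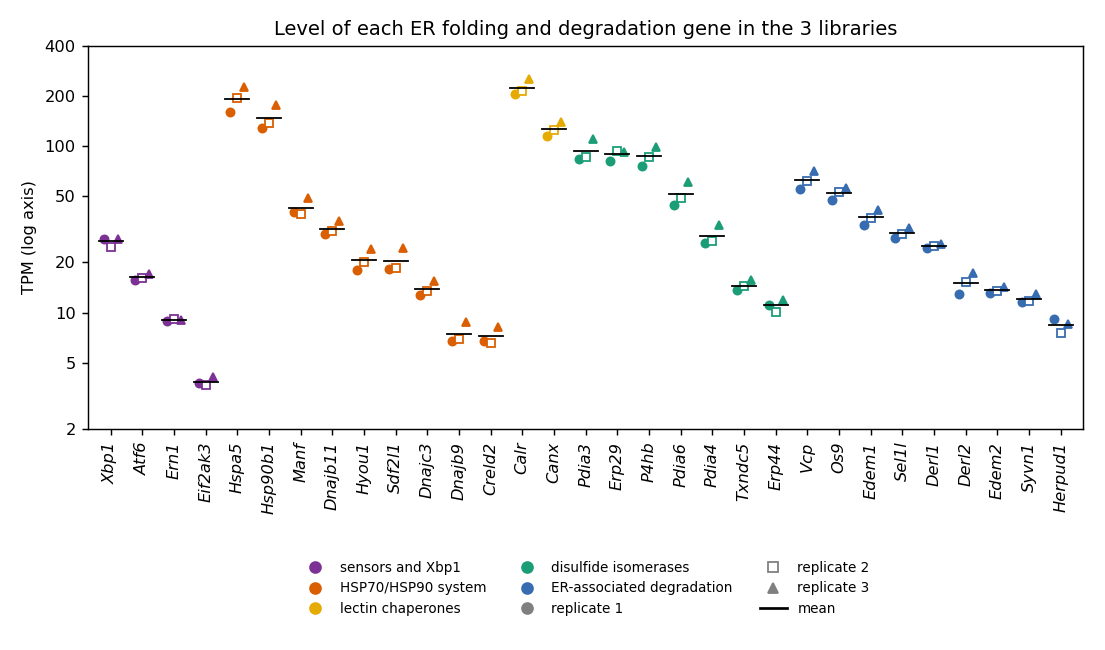
TPM of each of the 31 genes in the 3 libraries on a log axis, grouped by role and ordered by mean within a role; symbols are libraries and bars are means. Calr, with a mean of 223.5 TPM, is the highest member and Eif2ak3, with 3.84 TPM, the lowest. The symbols of replicate 3 lie above those of replicate 1 for most genes. Deposited TPM of all genes was also shifted upward in replicate 3 against replicate 1, by a median log2 of 0.12.

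The sensors were the least abundant class, with a median of 12.6 ± 0.363 TPM (SD, n = 3). Eif2ak3, which encodes the translation-limiting kinase PERK, had the lowest level of all members at 3.77, 3.65 and 4.09 TPM in replicates 1, 2 and 3. Ern1, which encodes the kinase and endoribonuclease IRE1, stood at 8.94, 9.10 and 8.99 TPM. Its deposited TPM had the smallest relative spread of the list, 9.01 ± 0.0819 (SD, n = 3). That rank did not hold for the normalised counts used below to compare libraries. There the ratio of the highest to the lowest library was 1.11 for Ern1, against a median of 1.12 for the members. The smallest ratio was 1.02, for Syvn1. By the chi-square test given there, Ern1 differed between libraries beyond counting error. Atf6 encodes a membrane-bound transcription factor that is freed by cleavage in the Golgi. Its values of 15.58, 16.18 and 16.98 TPM lay above all values of Ern1, and those of Ern1 lay above all values of Eif2ak3. Ern2, the IRE1 form of gut epithelium, was listed at 0 in all libraries.

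Xbp1, the transcription factor whose mRNA IRE1 cuts, was the most abundant gene of this class at 27.73, 24.85 and 27.62 TPM. IRE1 removes a short stretch of the coding sequence outside the nucleus, and the ends are religated, which shifts the reading frame to that of the active factor. The stretch lies on chromosome 11 in exon 4 of the transcript Xbp1-201, at positions 5524279 to 5524304 of mm10 on the plus strand, inside the coding sequence. It is shown because it decides what these tables can say about Xbp1. Capitals mark the 26 bases between the cuts, each of which falls within a CNGCAGC motif, in chr11:5524267-5524316 (mm10, plus strand, from the GENCODE M21 transcripts).
Xbp1: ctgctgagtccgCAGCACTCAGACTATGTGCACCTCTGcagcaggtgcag
Of the 4 annotated Xbp1 transcripts, 3 hold these 26 bases, and 0 hold the joined ends that remain after the cut. Reads of the cut form therefore had no annotated transcript of their own, and the deposited tables give no share of spliced Xbp1. What they do give is that Xbp1-201, the full-length coding transcript, held 96.4%, 97.3% and 98.3% of the TPM of Xbp1, or 97.3% ± 0.97 (SD, n = 3). The retained-intron transcript Xbp1-202, the annotated form without the stretch, held 1.38% ± 0.54 (SD, n = 3).

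Among the HSP70 and HSP90 genes, Hspa5 and Hsp90b1 stood far above their partners. Hspa5, which encodes BiP, the ER member of the HSP70 family, lies on chromosome 2 from 34771970 to 34777547 (mm10, plus strand). It had 158.66, 192.58 and 225.38 TPM in replicates 1, 2 and 3, or 192 ± 33.4 TPM (SD, n = 3), and ranked 155 among protein-coding genes. Hsp90b1, which encodes GRP94, lies on chromosome 10 from 86690209 to 86705509 (minus strand). It stood at 128.69, 137.87 and 175.30 TPM, or 147 ± 24.7 TPM (SD, n = 3). In each library Hspa5 exceeded Hsp90b1, although the ranges over libraries overlapped.

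The co-chaperones that set the ATPase cycle of BiP lay below it in every library. Dnajb11 (ERdj3), which delivers unfolded proteins to BiP, had the highest level of the J proteins at 29.46, 30.70 and 35.41 TPM. Hyou1 (GRP170), the nucleotide exchange factor of BiP, stood at 17.90, 20.09 and 24.10 TPM. Sdf2l1, a luminal partner of ERdj3, was close to it at 18.24, 18.43 and 24.41 TPM, and the 2 genes exchanged rank between libraries. Dnajc3 (p58IPK) had 13.9 ± 1.47 TPM, and Dnajb9 (ERdj4), which also represses IRE1, 7.47 ± 1.09 TPM (SD, n = 3 each). Of the secreted or luminal stress factors, Manf stood at 39.98, 38.96 and 48.73 TPM. Creld2, a luminal factor, had the lowest mean of the folding genes, with 6.76, 6.59 and 8.22 TPM.

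The lectin chaperones hold glycoproteins by their sugar chains. They had the highest median TPM of the classes, 175 ± 18.8 TPM (SD, n = 3), which rests on 2 genes. Calr (calreticulin, soluble in the lumen) lies on chromosome 8 from 84841850 to 84846934 (minus strand) and had 205.58, 212.37 and 252.55 TPM, the highest value of the list in every library and rank 131 among protein-coding genes by its mean. Canx (calnexin, its membrane-bound counterpart) lies on chromosome 11 from 50293961 to 50325673 (minus strand) and had 114.37, 124.92 and 139.57 TPM. All Canx values lay below all Calr values.

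The disulfide isomerase family spanned mean levels from 92.9 to 11.1 TPM. Pdia3 (ERp57), which works with calreticulin and calnexin, stood at 83.34, 85.64 and 109.73 TPM. Erp29, which lacks the active-site cysteines of its relatives, had 80.85, 93.14 and 92.29 TPM, and P4hb, the classical isomerase PDI, had 76.03, 85.14 and 97.83 TPM. The ranges of these 3 overlapped. Pdia3 exceeded P4hb in every library, while Erp29 changed its place among them. Pdia6 followed at 44.40, 48.83 and 61.01 TPM and Pdia4 (ERp72) at 26.08, 26.92 and 33.73 TPM. Txndc5 (14.5 ± 1.01 TPM) and Erp44 (11.1 ± 0.904 TPM, SD, n = 3 each), which retains ER oxidases and unassembled subunits through mixed disulfides, were the lowest.

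Genes of ER-associated degradation had a median of 25.0 ± 0.632 TPM (SD, n = 3). Vcp, the cytosolic ATPase that pulls substrates out of the membrane and serves many other pathways, was highest at 55.36, 61.14 and 70.52 TPM. Os9, the lectin that reads trimmed sugars on doomed glycoproteins, had 47.48, 52.49 and 55.86 TPM. Edem1, which promotes the trimming, had 33.58, 37.03 and 40.95 TPM, while Edem2, its relative, had 13.6 ± 0.598 TPM (SD, n = 3). The ubiquitin ligase Syvn1 (HRD1) stood at 11.54, 11.78 and 12.91 TPM. Its adaptor Sel1l was higher in every library, at 27.98, 29.71 and 32.08 TPM, with ranges that did not overlap. Of the derlins, thought to line the exit channel, Derl1 (24.34, 25.13 and 25.59 TPM) exceeded Derl2 (12.90, 15.22 and 17.21 TPM) in every library. Herpud1, which stabilises the ligase complex and is a classical target of the response, had the lowest level of the degradation genes at 9.17, 7.51 and 8.58 TPM.

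In the order of all 31 by mean TPM, 7 of the 30 pairs of neighbours had ranges that did not overlap, and 17 kept their order in every library. The boundaries without overlap lay below Canx, P4hb, Derl1, Sdf2l1, Edem2, Erp44 and Creld2.

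The ER forms were set beside the members of the same families in other compartments, within each library and as log2 of the ratio of TPM + 1. Hspa8, the constitutive cytosolic HSP70, had 414.89, 355.71 and 397.58 TPM and was higher than Hspa5 in 3 of 3 libraries, by 2.04-fold on average. The log2 ratio of Hspa5 to Hspa8 was -1.03 ± 0.31 (SD, n = 3). Hspa9, the mitochondrial form, had 27.65, 32.82 and 36.13 TPM, and Hspa5 exceeded it 5.79-fold, a log2 ratio of 2.53 ± 0.07 (SD, n = 3).

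For the HSP90 family the ER form was not below the cytosolic ones. Hsp90ab1, the constitutive cytosolic HSP90, stood at 126.8, 129.75 and 148.97 TPM. Hsp90b1 exceeded it in 3 of 3 libraries, but by a log2 ratio of 0.11 ± 0.11 (SD, n = 3), a difference about the size of its spread. Hsp90aa1, the inducible form, had 44.39, 60.06 and 70.5 TPM, 2.52-fold below Hsp90b1, a log2 ratio of 1.33 ± 0.17 (SD, n = 3). The mitochondrial Trap1 had 9.53, 9.81 and 11.84 TPM, and Hsp90b1 exceeded it 13.0-fold. For each of these 5 pairs flipping the signs of the library differences in an exact permutation test (two-sided) returned p = 0.25, also after Benjamini-Hochberg adjustment, which is the smallest value that 3 libraries allow.

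**Figure D2:**
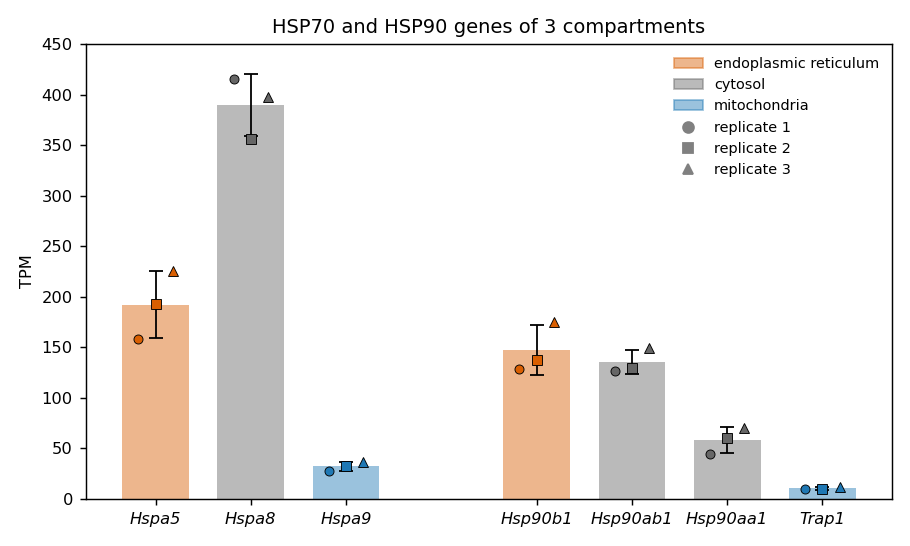
Mean TPM (bars) with SD (whiskers, n = 3) and the value of each library (symbols) for HSP70 genes at left and HSP90 genes at right, coloured by compartment. Hspa8 stands above Hspa5 in each library, while the values of Hsp90b1 and Hsp90ab1 overlap.

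Compared as lists, the 31 ER genes and 44 cytosolic and mitochondrial chaperones were compared by their medians. The difference of their median log2(TPM + 1) was 0.42, 0.12 and 0.15 in replicates 1, 2 and 3, or 0.23 ± 0.16 (SD, n = 3), and it was 0.025 when only genes with a mean of at least 1 TPM were kept. The highest of that list after Hspa8 and Hsp90ab1 were Ahsa1, an activator of HSP90 (65.1 ± 7.77 TPM), Hsp90aa1, the mitochondrial chaperonin partner Hspe1 (46.4 ± 1.83 TPM) and the J protein Dnajb6 (43.2 ± 1.02 TPM; SD, n = 3 each). The heat-inducible genes Hspa1a (0.907 ± 0.175 TPM) and Hspa1b (0.317 ± 0.0586 TPM), which are near-identical copies so that their split is uncertain, and the small heat shock genes Hspb1 (0.07 ± 0.06 TPM) and Hspb8 (listed at 0) were its lowest members.

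A further 84 genes of ER translocation, glycosylation, folding, degradation and stress signalling were measured. Of these, 68 reached 1 TPM in every library, and the list's median was 11.4 ± 0.688 TPM (SD, n = 3). Its highest members were Ppib, the ER cyclophilin (94.0 ± 7.40 TPM), Nfe2l2, a transcription factor of oxidative stress that PERK can phosphorylate (79.2 ± 3.81 TPM), and Aup1, a lipid droplet and degradation factor (68.1 ± 4.14 TPM). They were followed by Rpn2 of the oligosaccharyltransferase (49.5 ± 6.84 TPM), Ssr3 of the translocon-associated complex (48.4 ± 2.50 TPM) and Serp1 (46.1 ± 4.27 TPM; SD, n = 3 for all 6). Its lowest were Kdelr3 (0.0267 ± 0.0115 TPM), the testis lectin chaperone Clgn (at most 0.01 TPM), and the pancreatic isomerase Pdia2 and Ern2, both listed at 0.

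The next question was whether the 3 libraries differed from each other in these genes. For this the expected counts were scaled to CPM (the counts-per-million unit) with TMM factors, which align the bulk of genes between libraries, because the deposited TPM of all genes was shifted upward in replicate 3 against replicate 1 by a median of 0.12 on the log2 scale. A chi-square test set each gene's 3 rounded counts against what the library sizes predict, for the 13494 genes with a summed count of at least 30, with Benjamini-Hochberg adjustment at 0.05. It compares libraries of 1 group and asks only whether they differ beyond counting error. By that test 26 of the 31 genes differed. The share of all tested genes was 49.2%, and 61.6% among the 6804 genes counted at least as deeply as the lowest member. Counting error was small throughout: the lowest count was 502, for Creld2 in replicate 1, a counting coefficient of variation of 4.46%.

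The differences were modest. The ratio of the highest to the lowest library reached 1.5 in 0 of the 31 genes, against 6.97% of genes with a mean of at least 1 TPM. Its median was 1.12 for the members and 1.12 for those genes. The largest belonged to Pdia6 at 1.28, followed by Hsp90b1 at 1.26 and Sdf2l1 at 1.25. The 5 genes that did not pass were Creld2, Eif2ak3, Txndc5, Edem2 and Syvn1, with adjusted p of 0.0582, 0.735, 0.0857, 0.249 and 0.785 in that order by the chi-square test with Benjamini-Hochberg adjustment. The median gene-wise coefficient of variation of the edgeR model was 7.32% for the members and 8.32% for genes with a mean of at least 1 TPM.

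Which library was highest was then counted by role. Of the 31, 20 were highest in replicate 3, 8 in replicate 2 and 3 in replicate 1, where 35.7% of genes with a mean of at least 1 TPM were highest in replicate 3, 29.4% in replicate 2 and 34.8% in replicate 1. Replicate 3 exceeded replicate 1 in 25 of the 31, with a median ratio of 1.10 over the members, and in 52.9% of those genes. With the same cutoff it did so in 33 of 39 cytosolic and mitochondrial chaperones and in 46 of 68 other ER genes. All 18 folding genes (the HSP, lectin and isomerase classes) were higher in replicate 3 than in replicate 1, with a median ratio of 1.16, and under other scalings all or all but Erp44 were. Of the 4 genes of the sensor class 0 were higher, with a median ratio of 0.966, although 3 of the 4, all but Xbp1, were higher by deposited TPM and 2, Atf6 and Eif2ak3, in the second quantification. By the chi-square test on this pair of libraries, only Xbp1 of the 4 differed, and Atf6 had a ratio of 0.999. Xbp1 and Herpud1 were lower in replicate 3 under every scaling and in both quantifications. The degradation genes lay between, at 1.05, and the median over all genes with a mean of at least 1 TPM was 1.01.

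Hsp90b1 had 636, 686 and 799 normalised CPM in replicates 1, 2 and 3, and Pdia6 had 162, 181 and 207. Hspa5 had 714, 757 and 827. Among the isomerases, Erp29 and Txndc5 were the exceptions, with their highest value in replicate 2. Xbp1 was highest in replicate 1, at 98.05 against 89.5 and 91.2 normalised CPM. So was Herpud1, at 29.6 against 24.6 and 25.3, a ratio of replicate 3 to replicate 1 of 0.856 that was the lowest of the list. Eif2ak3 was the remaining gene with its highest value in replicate 1, at 30.1 against 29.3 and 29.1, values that did not pass the test.

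**Figure D3:**
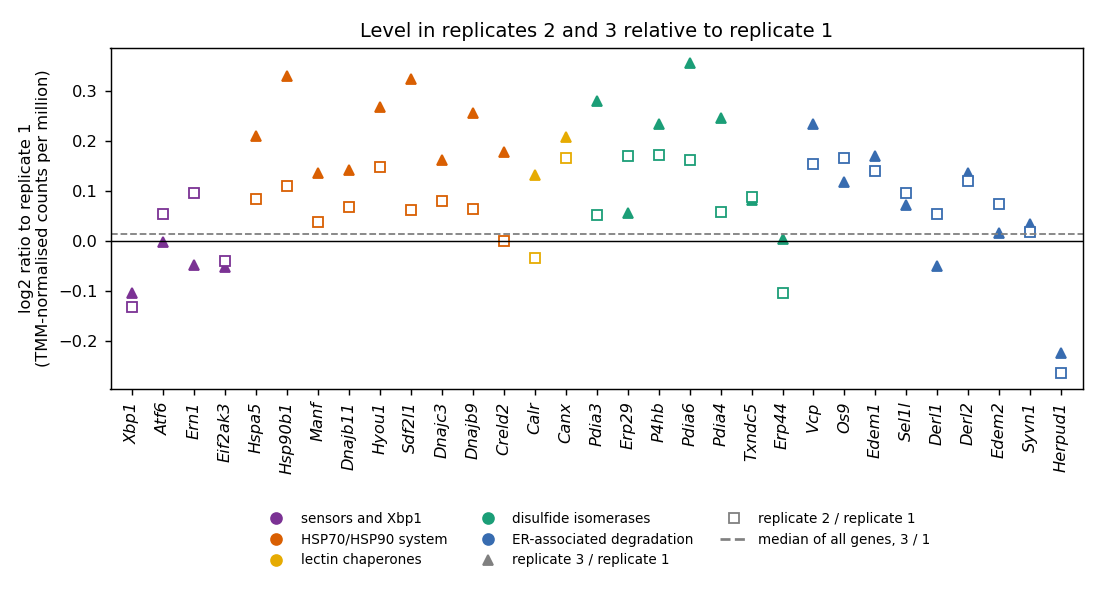
Log2 ratio of TMM-normalised CPM of replicate 3 (triangles) and replicate 2 (squares) to replicate 1 for each gene, with the median of all genes with a mean of at least 1 TPM as a dashed line. With this scaling the triangles of the folding genes all lie above 0 and those of the sensor class at or below it, where deposited TPM puts 3 of the 4 above, and Herpud1 is the lowest point.

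Pair by pair, 19 of the 31 were higher in replicate 3 than in replicate 1 by the same test on each pair and 2, Xbp1 and Herpud1, were lower. Of all genes, 21.3% were higher and 19.7% lower in that pair. The 18 folding genes contributed 14 of the 19 and 0 of the 2. Between replicates 1 and 2, 16 were higher in replicate 2 and 3 (Xbp1, Calr and Herpud1) lower, against 16.6% and 17.8% of all genes. Between replicates 2 and 3, 15 were higher in replicate 3 and 5 (Ern1, Atf6, Erp29, Derl1 and Os9) lower, where the shares of all genes were 15.0% and 12.4%. The other ER genes had a median ratio of replicate 3 to replicate 1 of 1.06, and the cytosolic and mitochondrial chaperones had 1.09, with 23 of 42 higher in replicate 3 and 1 lower.

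Genes outside the list also separated replicate 3 from replicate 1. The proliferation genes Mki67, Top2a and Cdk1 stood at 2.91, 3.89 and 5.29 TPM in replicate 1, at 3.09, 4.43 and 4.70 in replicate 2 and at 9.62, 13.5 and 13.1 in replicate 3. The nuclear RNA Malat1 was highest in replicate 1, at 597, 383 and 304 TPM. Their part in the differences of the ER genes was not tested, and fewer cells of a type and less RNA per cell cannot be told apart in such bulk libraries.

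Transcript tables showed how far each level belonged to coding transcripts. Of the 31 genes, 26 have annotated transcripts without a protein-coding label, and these held a median of 1.79%, 0.908% and 0.940% of a gene's TPM in replicates 1, 2 and 3, or 1.21% ± 0.502 (SD, n = 3). Over 4960 protein-coding genes with such transcripts and a mean of at least 5 TPM the median was 3.13% ± 0.791 (SD, n = 3). The share passed 10% in 5 of the 26 members, or 19.2%, and in 29.3% of those genes. In the second quantification that the authors deposited it passed 10% in 8 of the 26, with Canx (21.04%), Edem1 (15.3%) and Herpud1 (11.2%) added, and in 36.8% of those genes.

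The 5 of the first quantification were Manf (34.6% ± 2.31), Erp29 (23.1% ± 1.82), Hspa5 (15.7% ± 6.81), Calr (13.8% ± 4.94) and Sel1l (10.2% ± 0.40; SD, n = 3 for all). In that quantification each share came mostly from 1 short transcript. For Sel1l this was the 509-base Sel1l-202, at 7.88%, which was listed at 0 in the second quantification, where the 1402-base Sel1l-205 held 13.0% in its place. TPM divides by length, so a read on a short transcript adds more to it than a read on a long one. Expected counts do not divide by length, so long transcripts take a larger part of them. In expected counts the shares were 15.1%, 12.1%, 1.87%, 5.51% and 0.821% in the order of the 5 genes above. Of these 5 genes, Manf and Erp29 overlap genes on the opposite strand, and Manf also overlaps 1 gene on its own strand. Whether counting used strand is not given in the sources used here, so reads of those partners cannot be told apart from theirs. Members outside the 5, such as Pdia3, Pdia6 and Vcp, overlap genes on the opposite strand as well.

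Hspa5 showed what this does to a level. Hspa5-204, a 477-base transcript annotated for nonsense-mediated decay, had 12.33 TPM in replicate 1, 39.56 in replicate 2 and 41.09 in replicate 3. Replicate 1 stood apart from the other libraries in this quantification. In the second quantification the transcript had 23.28, 21.55 and 17.36 TPM, highest in replicate 1, or 18.7%, 27.9% and 23.2% of the TPM of Hspa5. In the first quantification it took 15.5% ± 6.81 (SD, n = 3) of the TPM of Hspa5 but 1.84% of its expected counts. Hspa5-204 had 186, 1050 and 779 expected counts in replicates 1, 2 and 3. Without the non-coding transcripts, Hspa5 stood at 146.04, 152.61 and 183.87 TPM, or 161 ± 20.2 TPM (SD, n = 3), still above Hsp90b1 in each library. The ratio of replicate 3 to replicate 1 for Hspa5 was 1.16 by normalised counts.

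**Figure D4:**
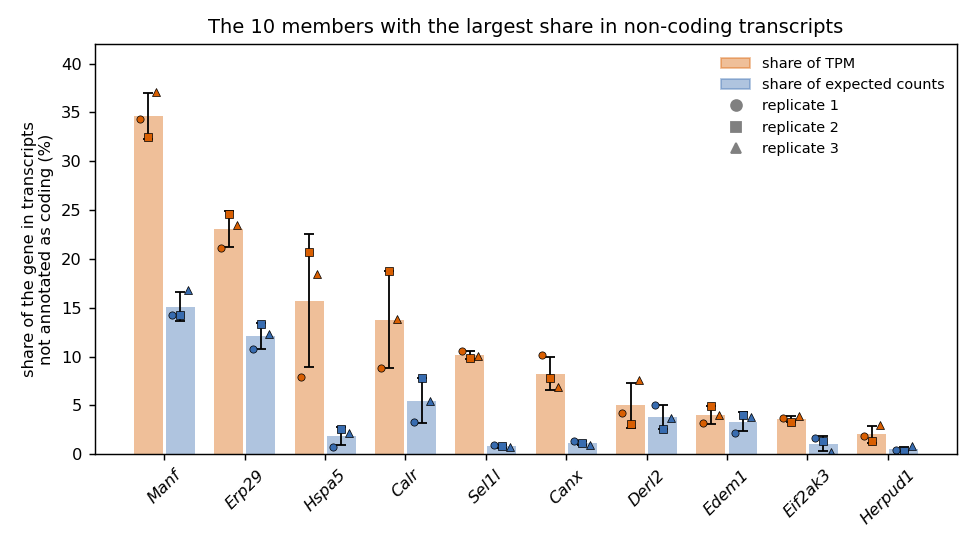
Percentage of a gene's TPM (orange) and of its expected counts (blue) in transcripts not annotated as protein-coding, for the 10 members with the largest TPM share; bars are means, whiskers SD (n = 3) and symbols libraries. Hspa5 falls from 15.7% of TPM to 1.87% of counts, and Manf from 34.6% to 15.1%.

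For the other members a single coding transcript usually led, with exceptions. Syvn1 was divided between Syvn1-201 (49.5% ± 5.61 of its TPM) and Syvn1-204 (36.1% ± 2.72), and Derl2 between Derl2-207 (48.5% ± 1.01) and Derl2-206 (28.8% ± 2.91; SD, n = 3 for all). These orders were not kept elsewhere. In the second quantification Syvn1-204 led with 49.7% against 28.5% for Syvn1-201, and Derl2-206 held 12.7%, below Derl2-202 with 20.2%. By expected counts Derl2-206 led with 55.8% against 33.8% for Derl2-207. Os9 had 60.0% ± 4.37 in Os9-202 and 40.0% ± 4.37 in Os9-201 (SD, n = 3). The gene levels of both quantifications were compared after scaling to protein-coding TPM. Their log2 ratio, second over first, had a median of -0.02 and ran from -0.11 for Syvn1 to 0.34 for Derl2.

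Promoters were searched for the ER stress element, a bipartite site bound by ATF6 together with the factor NF-Y. CCAAT and CCACG with exactly 9 bases between them were looked for on both strands in 250 bases before to 50 after each RefSeq gene start. The element was defined from promoters of ER chaperone genes, Hspa5 and its relatives among them, so finding it in this list is no independent result. Windows were in the table for 26 of the 31 genes, all but Hyou1, Manf, Atf6, Derl1 and Erp29. The element occurred in 8 of these 26, or 30.8%, and in 37 of 27025 genes in the table, or 0.137%. The 8 were Calr, Hspa5, Hsp90b1, Canx, Pdia6, Dnajc3, Syvn1 and Creld2, of which 7 are folding genes.

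The 4 most abundant genes of the list all carried it, Hsp90b1 in 2 copies, and their sites are shown to let the shared ends and the differing spacers be read. Sequences are from RefSeq (GRCm38.p6), 5′ to 3′ on the strand of the gene, with the element in capitals, and sites that begin with CGTGG lie in reverse orientation. They are Calr at chr8:84847059-84847109 (minus strand, 162 to 144 bases before the gene start), Hspa5 at chr2:34772020-34772048 (plus strand, 65 to 47 before), Hsp90b1 at chr10:86705622-86705672 and chr10:86705517-86705567 (minus strand, 212 to 194 and 107 to 89 before) and Canx at chr11:50325784-50325834 (minus strand, 145 to 127 before). The Hspa5 site lies inside the gene as GENCODE M21 draws it, whose start is further upstream, and is printed with shorter flanks.
Calr: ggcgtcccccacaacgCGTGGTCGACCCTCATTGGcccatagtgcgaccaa
Hspa5: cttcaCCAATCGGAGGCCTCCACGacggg
Hsp90b1, first site: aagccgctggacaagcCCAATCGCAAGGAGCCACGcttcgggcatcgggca
Hsp90b1, second site: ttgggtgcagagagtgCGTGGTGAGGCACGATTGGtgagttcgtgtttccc
Canx: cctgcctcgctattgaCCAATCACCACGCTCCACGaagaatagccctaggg

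The 8 genes with the element had a median of 88.9 TPM and the 18 without it 23.5 TPM. Among the 8, the highest library was replicate 3 for all, with a median ratio of replicate 3 to replicate 1 of 1.14 and a range from 1.02 (Syvn1) to 1.28 (Pdia6). Of these 8, 6 differed between libraries beyond counting error, all but Syvn1 and Creld2. Among the 18, the highest library was replicate 3 for 10, with a median ratio of 1.09 and a range from 0.856 (Herpud1) to 1.25 (Sdf2l1). Of all genes with a mean of at least 1 TPM, 35.7% were highest in replicate 3. The ranges overlapped widely, 7 of the 8 are folding genes, and a match in this window is a description of letters only.

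**Figure D5:**
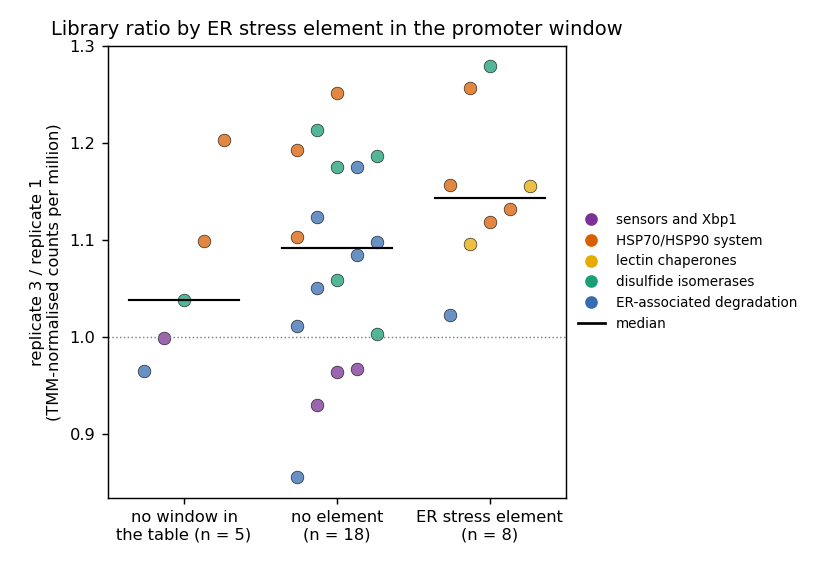
Ratio of TMM-normalised CPM of replicate 3 to replicate 1 for each member (points, coloured by role), split by whether the promoter window holds the ER stress element (the 5 genes without a window stand at left), with medians as lines. The 8 genes with the element lie between 1.02 and 1.28, and the 18 without between 0.856 and 1.25.

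A second pattern, ATTGG and CCACG with 1 base between them, the other ER stress element, occurred in 2 of the 26, Dnajb11 and Herpud1, and in 12 of the 27025 genes, or 0.0444%. In Dnajb11 it lay 7 to 17 bases after the start. The site of Herpud1, shown because this gene had the lowest ratio of replicate 3 to replicate 1, and chosen after its values were seen, lay 52 to 42 bases before the start, at chr8:94386361-94386403 (GRCm38.p6, plus strand), with the element in capitals.
Herpud1: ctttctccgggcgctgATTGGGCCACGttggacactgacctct
The unfolded protein response element TGACGTGG, a site of XBP1, occurred in the windows of Vcp and Txndc5 and in 0.714% of genes.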

How the data were processed

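Expected counts and TPM per gene and per transcript were computed by the authors from transcriptome alignments (mm10, GENCODE M21, per the file headers and notes), in the layout RSEM writes. Estimated counts and TPM of a second transcript table, which the authors derived from reads directly, have the layout kallisto writes. No source used here names the aligner or quantifiers. Entries other than the 55536 Ensembl genes stayed out of library sizes and tests. Members and gene lists were chosen with earlier results of these data known. All members were named, with the 6 highest and 4 lowest genes of the other lists and 5 counterparts, while Mki67, Top2a, Cdk1 and Malat1 were chosen after their values were seen. Ddit3 has several entries, of which 1 was used. Counts were rounded, scaled by TMM (edgeR 4.0.16) and tested by chi-square over all genes, since a single group has no contrast for edgeR's own test, which served for dispersion alone. TPM was compared as log2(TPM + 1), which understates differences between low genes. Of the procedures, only the chi-square test was tried on simulated data. Those counts varied by counting error alone apart from set changes, so a wider spread between libraries was not covered. Alternatives varied scaling, quantification, filters, pseudocount, motif and libraries. Work was done in R 4.3.3 with DESeq2 1.42.0 (size factors) and in Python 3.11.15 with pandas 2.3.3, scipy 1.17.1, numpy 2.4.6 and matplotlib 3.10.9.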

Additional observations from a re-analysis of the deposited data

How the results depend on the processing

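All 5 gene pairs kept their direction under the other pseudocount, scaling and quantification and with 1 library left out. Hsp90b1 against Hsp90ab1 then ran from 0.05 to 0.16 on the log2 scale. The median of the members was 11.96 TPM in the second quantification and 108.3 TPM when TPM was scaled to protein-coding genes, which held 23.5% to 25.6% of the TPM of the first quantification and 8.11% to 17.2% of the second. In the second quantification the median non-coding share was 2.39%, 8 members passed 10%, the share of Xbp1-201 was 95.1% and that of Hspa5-204 23.3%, while by expected counts Hspa5-204 held 1.84% and 2 members passed 10% (16.98% of genes). With genes of mean 1 TPM or more, the difference from the other chaperones was 0.025. By deposited TPM, the median log2 ratio of replicate 3 to replicate 1 was 0.29, against 0.14 by TMM, and 27 members were highest in replicate 3, where 66.1% of all genes were. Other element patterns gave 2 members (TGACGTGG) and 2 (ATTGG and CCACG with 1 base between), and a spacing of 8 to 10 bases gave 8. Members differing beyond counting error numbered 24 to 28 across scalings, filters and the second quantification, where 31.7% to 55.5% of all genes did. Without replicate 1, 2 or 3 in turn they numbered 20, 21 and 19, beside 27.5%, 41% and 34.4% of all genes. A count of protein retrieval motifs was not run, and with 1 group there was no replicate number to block on. The counts by highest library, the comparison of replicate 3 with replicate 1, the second ER stress element, the count of members past 10% and every value of Hspa5-204 were chosen after seeing the data.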
